A study of Homo sapiens with 34 samples.

Results

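The APOBEC3 cytidine deaminases are 7 genes, *APOBEC3A*, *APOBEC3B*, *APOBEC3C*, *APOBEC3D*, *APOBEC3F*, *APOBEC3G* and *APOBEC3H*, and all 7 were taken from the 17587 genes listed in at least 1 of the 6 expression tables of the series. They were chosen by gene symbol, and the interest in *APOBEC3B* against its paralogs was selected on the same group values that are described below, so these values are a description and carry no test. All 7 were among the 13307 genes listed in every table, and none was left out by a filter on low values.

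RNA was sequenced from 3 human B-ALL (B-cell precursor acute lymphoblastic leukemia) cell lines, NALM-6 with ETV6-PDGFRB, RS4;11 with MLL-AF4 and BV-173 with BCR-ABL. In each line, cells sorted 4 days after lentiviral transduction with 1 shRNA against *CCND3* were compared with cells transduced with a scrambled shRNA. In a separate experiment with its own control, cells kept for 3 days in 1 µM palbociclib, an inhibitor of the cyclin D kinases CDK4 and CDK6, were compared with cells kept in the solvent DMSO. The 34 samples fell into 12 groups of 3, apart from 2 groups of 2, namely NALM-6 with the *CCND3* shRNA and BV-173 in DMSO. Each line stands for its driver fusion alone, so line and fusion cannot be told apart, and transduced and drug-treated cells differed in handling, sorting and day as well as in treatment.

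The deposited tables give 1 level per group, a signal in arbitrary units from the authors' comparison of that pair of groups. The spread between replicates and the depth of each sample cannot be seen in these levels, no SD can be given, and a difference was counted only when the 2 group levels differed at least 1.5-fold (0.585 on the log2 scale). Every log2 ratio below is the treated level over its own control level in the same line, and where 3 values follow each other without a line, they stand for NALM-6, RS4;11 and BV-173 in this order. A pair of levels is given with the control first. *CCND3* itself was left at 24.2%, 20.7% and 31.1% of the scrambled level by its shRNA, and at 78.0%, 81.8% and 76.0% of the DMSO level in palbociclib. Of 9 B-lineage markers, all 9 were at a level of at least 10 in NALM-6 and BV-173 and 8 in RS4;11, where *MME* was the exception, while no T-cell marker reached 10 in any group. Of 4 markers of NK cells, 3 were listed in RS4;11. Only *NKG7* was at a level of at least 100 in its scrambled control, at 1397 of a summed level of 1422. In the scrambled controls of NALM-6 and BV-173, the highest NK-cell marker was at 145 and 537. The level of *NKG7* alone thus did not separate RS4;11 from NK cells.

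APOBEC3 enzymes turn cytosine into uracil in single-stranded DNA and are known as part of the innate defence against retroviruses and retroelements. *APOBEC3B* is largely nuclear and is known as a source of C-to-T and C-to-G mutations in tumours, *APOBEC3A* is induced mainly in myeloid cells, and *APOBEC3G* and *APOBEC3F* are packaged into retrovirus particles and edit the viral DNA. Transcription of many cell cycle genes is held down by the RB and DREAM complexes until cyclin D kinases release it.

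The 7 genes lie side by side on the plus strand of chromosome 22, in the order A, B, C, D, F, G and H, and span chr22:38957609-39104067 (146.5 kb, RefSeq annotation of GRCh38.p14). *APOBEC3B* occupies chr22:38982347-38992779, between *APOBEC3A*, which ends before it at 38963184, and *APOBEC3C*, which starts at 39014257. Their coding sequences are near copies of one another in places, which matters for reads that could come from more than 1 gene. Of all 50-base words in the GENCODE 44 protein-coding transcripts of *APOBEC3B*, 27.5% were also present in another member, and 14.3% were present in *APOBEC3A*. *APOBEC3A* shared 19.4% of its words with *APOBEC3B*, and the share held by any other member was 14.8% for *APOBEC3D*, 13.0% for *APOBEC3G* and 10.2% for *APOBEC3F*. *APOBEC3C* shared 1.23% and *APOBEC3H* none. The level of a member that shares words rests in part on how RSEM, the authors' estimator, divided such reads, and that division was not tested.

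The RefSeq table of promoter sequences matched 1 of the 7 members, *APOBEC3H*, the only other member besides *APOBEC3B* that was at least 1.5-fold lower in palbociclib in 2 lines. Its 250 bases before the start, at chr22:39096994-39097243 on the plus strand of GRCh38.p14, are shown because they are where a cell cycle or interferon motif would be looked for, with any match in capitals.

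APOBEC3H promoter: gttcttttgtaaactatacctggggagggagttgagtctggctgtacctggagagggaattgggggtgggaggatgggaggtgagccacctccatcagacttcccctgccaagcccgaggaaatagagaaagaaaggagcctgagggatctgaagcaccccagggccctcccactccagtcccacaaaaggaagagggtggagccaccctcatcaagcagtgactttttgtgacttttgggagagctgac

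No base is in capitals, since none of 5 motifs was found on either strand. TTTGAA, the core of the CHR element bound by the DREAM complex, occurred in 13.3% of all 35116 promoter windows of the same length. The E2F letters TTTGGCGC occurred in 0.55% and TTTCCCGC in 1.39%. GAAANNGAA, a pattern of interferon-stimulated elements, occurred in 6.88%, and TTCNNNGAA, the pattern bound by STAT dimers, in 6.57%. The missing matches say only that these letters are not in this window.

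*APOBEC3B* was lower after palbociclib in all 3 lines and lower after *CCND3* knockdown in NALM-6 and RS4;11 by more than the 1.5-fold mark, and no paralog shared this pattern. In NALM-6, its level went from 687 in DMSO to 25.6 in palbociclib, 26.9-fold lower (log2 ratio -4.75). In RS4;11 it went from 2593 to 21.8, 119-fold lower (log2 ratio -6.89). Only 2 of the 15614 genes listed for NALM-6 had a lower log2 ratio than *APOBEC3B*, and likewise 2 of the 15857 for RS4;11. In BV-173 the level was 792 in DMSO and 164 in palbociclib, 4.84-fold lower (log2 ratio -2.27), and *APOBEC3B* stood at place 46 from the lowest of 14797 genes. Thus palbociclib left 3.72%, 0.842% and 20.7% of the control level. RS4;11, the line with the highest control level, had the lowest treated level of the 3, although its 21.8 was within 1.5-fold of the 25.6 of NALM-6.

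*CCND3* knockdown moved *APOBEC3B* less than palbociclib did in each line. The level was 564 with the scrambled shRNA and 259 with the *CCND3* shRNA in NALM-6, 2.18-fold lower (log2 ratio -1.12). In RS4;11 it was 1657 and 452, 3.66-fold lower (log2 ratio -1.87), which placed *APOBEC3B* at 77 from the lowest of 15944 genes. In BV-173 it was 736 and 578, 1.27-fold lower (log2 ratio -0.35), which is within the 1.5-fold mark. The order of the lines was the same for both treatments, with the lowest ratio in RS4;11 and the ratio nearest to 0 in BV-173. The log2 ratio of palbociclib less that of knockdown was -3.62, -5.02 and -1.93. These differences were not tested, and they set experiments with different controls, days and handling side by side. A lower level in RNA from a whole culture also does not separate fewer cells that express the gene from less RNA per cell.

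**Figure D1:**
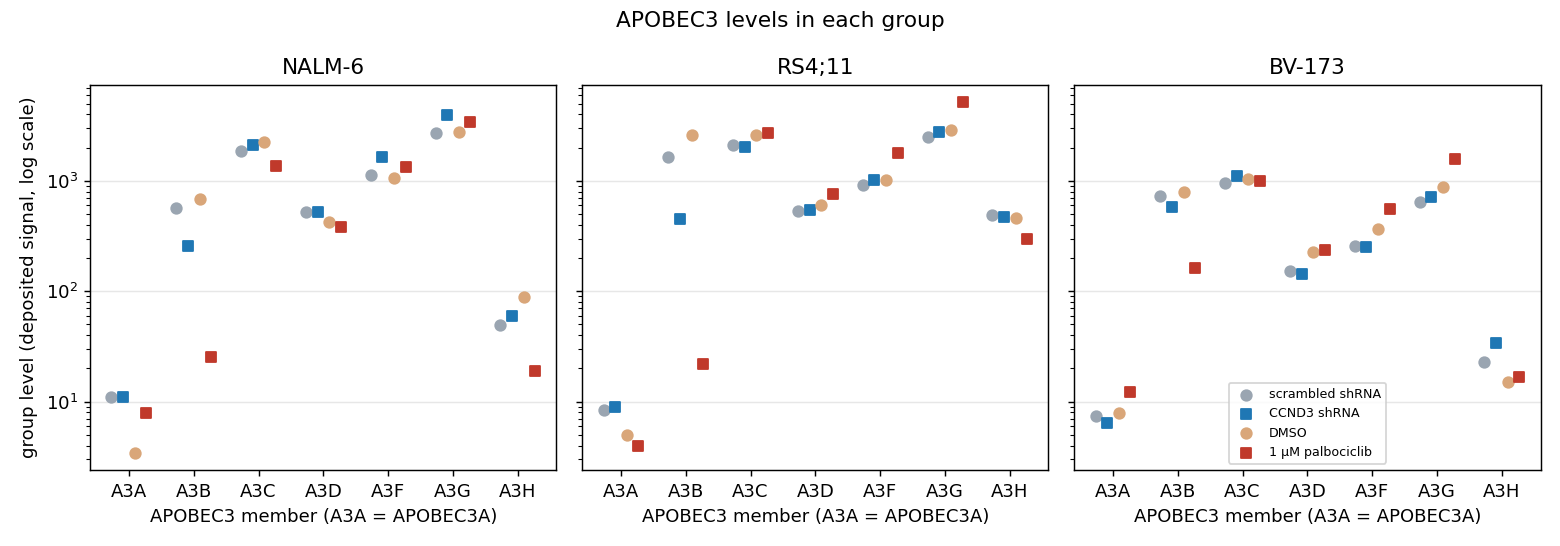
Group levels (deposited signal, log scale on the y axis) of the 7 APOBEC3 genes, with a panel for each line and 1 point per group (circles, scrambled shRNA or DMSO; squares, *CCND3* shRNA or palbociclib) and no error, since the values are per group. The square for palbociclib sits far below the other points for *APOBEC3B*, at 25.6, 21.8 and 164, while for *APOBEC3F* and *APOBEC3G* the palbociclib square lies above the DMSO circle in every line.

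Among all genes, 14.9%, 15% and 11.9% were at least 1.5-fold lower in palbociclib, and 21.4%, 16.7% and 13.6% at least 1.5-fold higher. For knockdown, 8.47%, 9.72% and 4.78% were lower and 7.82%, 9.73% and 3.32% higher. Against this background, 3, 2 and 1 of the 7 members were lower in palbociclib, and 1, 2 and 3 were higher. After knockdown, 1, 1 and 0 members were lower, in each case *APOBEC3B*, and 0 were higher in any line. Over the 42 pairs of member and comparison, 8 were lower, of which 5 were *APOBEC3B*, and 6 were higher, all of them paralogs. Because the interest in *APOBEC3B* came from these values, its count is no finding of its own.

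The distance between *APOBEC3B* and its paralogs was largest in palbociclib. The median log2 ratio of the 6 paralogs was 0.06, 0.19 and 0.37 in palbociclib, and *APOBEC3B* less that median was -4.81, -7.08 and -2.64. After knockdown the paralog medians were 0.23, 0.06 and 0.06, and *APOBEC3B* less the median was -1.35, -1.94 and -0.41. In RS4;11 the 6 paralogs spread from -0.63 to 0.84 in palbociclib and from -0.07 to 0.15 after knockdown, in the same groups in which the shRNA brought *APOBEC3B* to 27.3% of its control. The median over all listed genes was between -0.01 and 0.06 in the 6 comparisons.

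**Figure D2:**
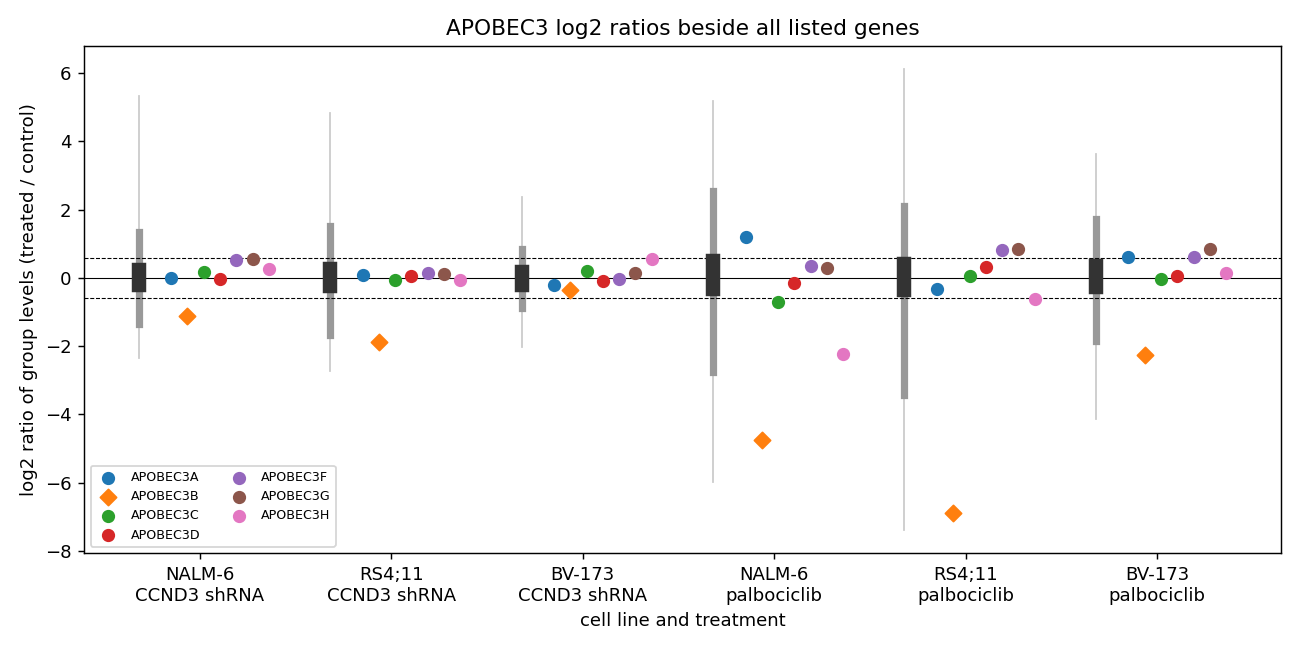
Log2 ratios of group levels (y axis, treated over control) of the 7 members in the 6 comparisons (x axis), beside all listed genes as a bar (thin line, full range; grey, percentiles 1 to 99; black, percentiles 25 to 75). Dashed lines mark 1.5-fold, and the diamond of *APOBEC3B* lies at -4.75, -6.89 and -2.27 in palbociclib, below the grey bar in each of these 3 comparisons.

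*APOBEC3G* and *APOBEC3F*, the pair best known for restricting HIV that lacks its Vif protein, were the members that were higher in palbociclib in more than 1 line and at a high level. *APOBEC3G* went from 2782 to 3393 (log2 ratio 0.29), from 2867 to 5130 (0.84) and from 888 to 1586 (0.84) in palbociclib. It was thus 1.79-fold higher in both RS4;11 and BV-173 and within the 1.5-fold mark in NALM-6. After knockdown its level was 2716 and 3975 (log2 ratio 0.55), 2521 and 2744 (0.12) and 637 and 709 (0.15). All 6 ratios were above 0, and the knockdown ratio of NALM-6 fell just short of the mark at 1.46-fold.

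*APOBEC3F* followed *APOBEC3G* closely. Its level went from 1050 to 1339 (log2 ratio 0.35), from 1016 to 1787 (0.81) and from 366 to 557 (0.61) in palbociclib. After knockdown it was 1137 and 1631 (0.52), 916 and 1018 (0.15) and 259 and 252 (-0.04). The 1.52-fold ratio of BV-173 in palbociclib was barely past the mark. The 6 log2 ratios of *APOBEC3F* and *APOBEC3G* differed by 0.13 in root mean square, the smallest difference among the 21 pairs of members, and the next was 0.30 for *APOBEC3C* and *APOBEC3D*. *APOBEC3G* shared 10.4% of its 50-base words with *APOBEC3F*, so the 2 estimates are not fully separate measurements.

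*APOBEC3C* passed the 1.5-fold mark in 1 of 6 comparisons and *APOBEC3D* in none. *APOBEC3C*, a member with a single deaminase domain, was at 2240 in DMSO and 1366 in palbociclib in NALM-6, 1.64-fold lower (log2 ratio -0.71). In RS4;11 it was at 2611 and 2696 (0.05) and in BV-173 at 1032 and 1000 (-0.05), so only the NALM-6 level was past the mark. Knockdown gave 1873 and 2122, 2092 and 2023, and 953 and 1102, all within 1.16-fold of the control. *APOBEC3D*, which has a pair of deaminase domains, was the steadiest member, with 6 log2 ratios from -0.16 to 0.33. Its levels in palbociclib were 424 and 380, 606 and 761, and 225 and 236. After knockdown they were 526 and 517, 528 and 548, and 153 and 143, and no comparison passed the 1.5-fold mark.

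*APOBEC3H*, the member that shared no words with the others, was low in NALM-6 and BV-173 and abundant in RS4;11. In palbociclib it went from 88.8 to 19.0 in NALM-6, 4.68-fold lower (log2 ratio -2.23), and from 458 to 297 in RS4;11, 1.54-fold lower (-0.63). BV-173 had 15.2 and 16.6 (0.13). Unlike *APOBEC3B*, it was not lower after knockdown, with 49.5 and 59.7 (0.27), 489 and 466 (-0.07) and 23.1 and 33.8 (0.55). The 2 control groups of NALM-6 themselves differed for this gene, since the DMSO level was 1.89-fold the scrambled level after scaling across tables. Against the scrambled level, the palbociclib level of NALM-6 was still the lowest of its 4 groups.

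*APOBEC3A* was low in every group, between 3.45 and 12.2. Per kb, between 22.8% and 28.0% of the listed genes had a lower level. Its level in palbociclib was 3.45 and 7.97 (log2 ratio 1.21), 4.96 and 3.93 (-0.34) and 7.94 and 12.2 (0.62). After knockdown it was 11.0 and 11.0, 8.43 and 8.89, and 7.45 and 6.46. The ratios of NALM-6 and BV-173 in palbociclib passed the 1.5-fold mark on levels of a few units, and the scrambled level of NALM-6 was 3.03-fold its DMSO level after scaling across tables. The spread between the controls was therefore larger than the difference counted in NALM-6. *APOBEC3A* is best known from monocytes, and the 5 myeloid markers summed to 105 in DMSO and 174 in palbociclib in NALM-6 and to 236 and 586 in BV-173, with 2 of the 5 at a level of at least 10 in NALM-6 and 4 in BV-173. A single marker held 145 and 513 of the BV-173 sums. In RS4;11, where *APOBEC3A* was not higher in palbociclib, they summed to 641 and 550. After knockdown they summed to 92.8 and 131 in NALM-6, 972 and 1168 in RS4;11 and 272 and 261 in BV-173, and no *APOBEC3A* ratio of knockdown passed the mark. Their part in the *APOBEC3A* values was not tested.

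Per kb of length, which lets levels of different genes be compared, the family was made up mostly of *APOBEC3C* and *APOBEC3G* in every group. In DMSO, *APOBEC3C* was the first member in all 3 lines, with 44.5%, 35.5% and 43.6% of the summed level per kb. *APOBEC3B* held 10.3%, 26.8% and 24.2%, at place 3 in NALM-6 and place 2 in the other lines. Palbociclib brought these shares of *APOBEC3B* to 0.482%, 0.238% and 5.00%, and its place among the 7 to 6, 6 and 4. With knockdown the share went from 9.01% to 3.43%, from 20.5% to 6.47% and from 25.9% to 19.6%. The deposited length of *APOBEC3B* was 1485 bases in the palbociclib tables of NALM-6 and RS4;11 and 1560 in the others, and that of *APOBEC3F* ranged from 3610 to 4196. Shares depend on the length used, and with the longest coding length of each gene those of *APOBEC3B* in DMSO were 5.65%, 16.0% and 14.6%.

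The family as a whole kept most of its summed level while its make-up changed. In BV-173 the summed level per kb was 2099 in DMSO and 2098 in palbociclib, with *APOBEC3G* going from 22.8% to 40.7% of the sum as *APOBEC3B* went down. The sum in palbociclib was 80.0% of that in DMSO in NALM-6 and 94.8% in RS4;11, where *APOBEC3G* made up 51.3% and 44.7% of it. After knockdown the sum was 121%, 86.5% and 104% of the control. All 6 sums were thus within 1.5-fold of their controls, whereas the *APOBEC3B* part of them was not in 5 of the 6.

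**Figure D3:**
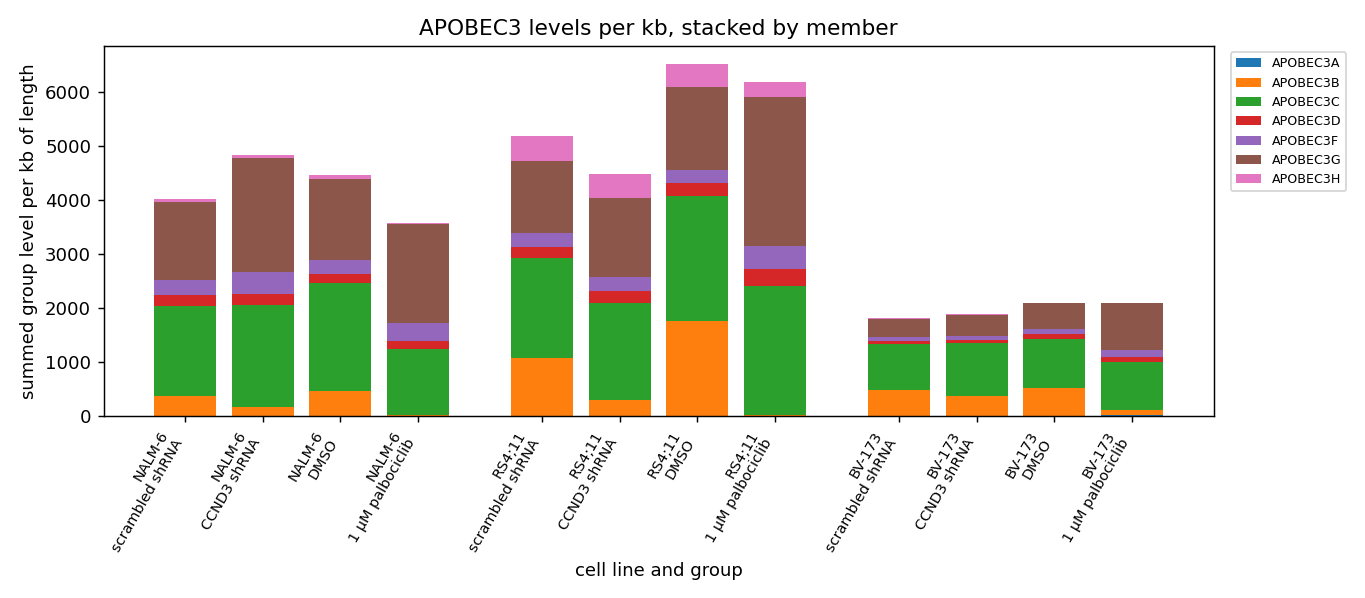
Group levels per kb of length (y axis), stacked by member, for the 4 groups of each line (x axis), with no error since the values are per group. The *APOBEC3B* block shrinks from 26.8% to 0.238% of the stack in RS4;11 in palbociclib, and the *APOBEC3G* block grows from 23.7% to 44.7%.

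Among the control groups, *APOBEC3B* was highest in RS4;11. After scaling across tables, its DMSO level was 2446 in RS4;11, 840 in BV-173 and 662 in NALM-6, and its scrambled level was 1597, 764 and 517. BV-173 and NALM-6 lay within 1.5-fold of each other. The DMSO level was 1.53-fold the scrambled level in RS4;11, 1.28-fold in NALM-6 and 1.10-fold in BV-173. The ratio between the controls of RS4;11 is small beside the 119-fold ratio of palbociclib but not beside the 3.66-fold ratio of knockdown.

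No listed neighbour of the cluster was lower in all 3 lines in palbociclib by more than the 1.5-fold mark. *CBX6*, a Polycomb protein gene and the nearest listed protein-coding neighbour before *APOBEC3A*, had log2 ratios of 0.92, 0.58 and 0.79 in palbociclib. *CBX7*, a related gene and the nearest one after *APOBEC3H*, had -1.03, -0.34 and -1.57. The BV-173 ratio rests on low levels of 34.4 in DMSO and 11.6 in palbociclib, and the deposited scrambled level of that line was 15.4. *SUN2*, a nuclear envelope gene, had -1.14, 0.37 and 0.36, and *DNAL4*, a dynein light chain gene, had 0.14, 0.38 and 0.02. *RPL3*, a ribosomal protein gene, had 0.01, 0.69 and 0.49, and *SYNGR1*, a synaptic vesicle gene, had 1.10, 1.06 and 0.41. The NALM-6 ratio of *SYNGR1* rests on low levels of 15.7 in DMSO and 33.6 in palbociclib. After knockdown these 6 neighbours lay between -0.28 and 0.88. *APOBEC3A* and *APOBEC3C*, on either side of *APOBEC3B*, had ratios from -0.71 to 1.21 in palbociclib.

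**Figure D4:**
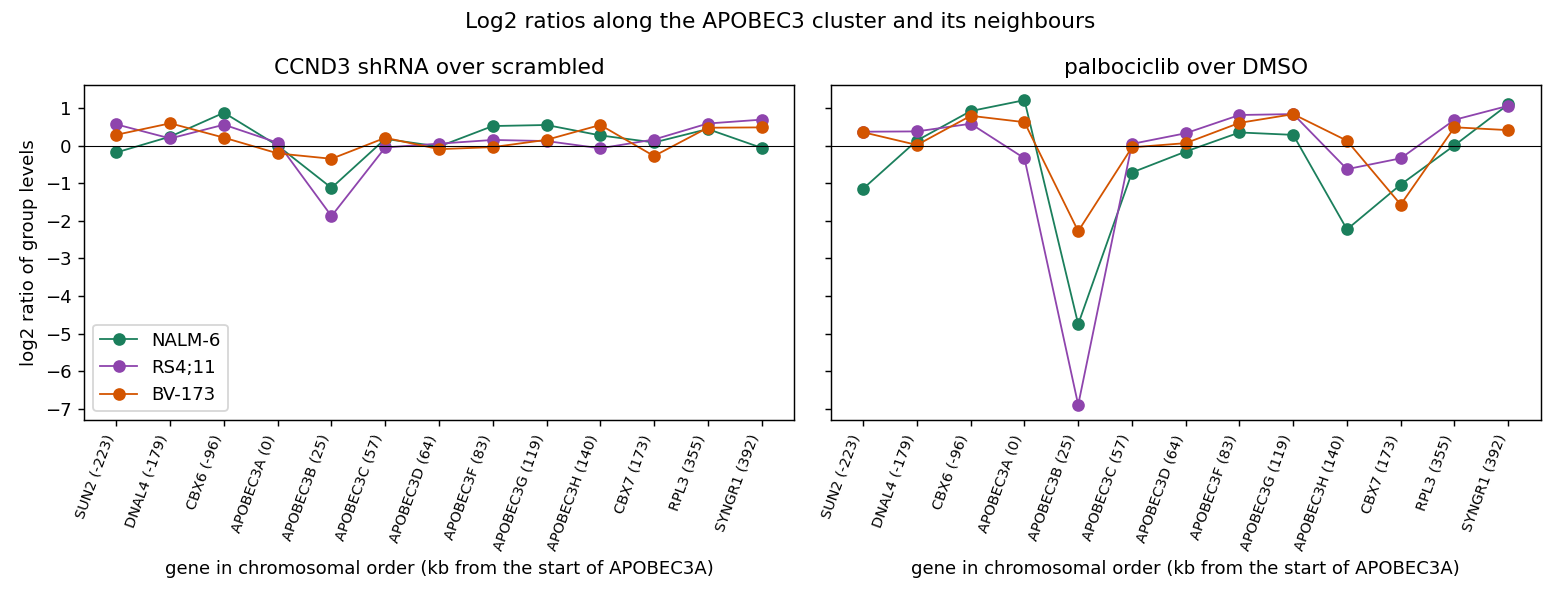
Log2 ratios of group levels (y axis) of the 7 members and 3 listed protein-coding neighbours on each side, in chromosomal order with the distance in kb from the start of *APOBEC3A* (x axis), for knockdown on the left and palbociclib on the right. Each line shows 1 cell line, and *APOBEC3B* is the lowest point of every line in palbociclib, with *APOBEC3H* of NALM-6 (-2.23) and *CBX7* of BV-173 (-1.57) the next lowest.

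The genes whose 6 log2 ratios were nearest to those of *APOBEC3B*, by root mean square difference among 10188 genes with a level of at least 10 in every group, were *FAM72C* (0.41), *NEK2* (0.47), *NUF2* (0.53), *SPC24* (0.55), *DLGAP5* (0.56), *KIF14* (0.56), *KIF2C* (0.57) and *AURKB* (0.60). *NEK2* and *AURKB* are mitotic kinases, *NUF2* and *SPC24* are subunits of the NDC80 kinetochore complex, and *KIF14*, *KIF2C* and *DLGAP5* act on mitotic microtubules. *FAM72C* is 1 of 4 near-identical copies, so its own level is uncertain. *NEK2*, for example, had log2 ratios of -1.48, -1.72 and -0.57 after knockdown and -3.85, -6.37 and -2.57 in palbociclib. In NALM-6 and RS4;11 in palbociclib, the 8 genes lay between -4.47 and -3.48 and between -6.65 and -5.86. All were above *APOBEC3B*, which stood at place 3 from the lowest of all listed genes in both. They were chosen after their values were seen, over 6 comparisons that share their lines, and their likeness is a description.

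The genes nearest to each paralog are given in the same way, as a description. *IRGQ* was the nearest gene to both *APOBEC3F* (0.11) and *APOBEC3G* (0.13), followed by *NXF1* (0.14) and *LYPLA2* (0.15) for the first and *NUDT16L1* (0.16) and *MAGEH1* (0.17) for the second. *ISY1* (0.07), *C12orf73* (0.11) and *TRIP6* (0.11) were nearest to *APOBEC3C*, and *FASTKD5* (0.08), *TSPAN13* (0.08) and *EHMT2* (0.09) to *APOBEC3D*. *TBX6* (0.34), *CCNG1* (0.38) and *RPS27L* (0.39) were nearest to *APOBEC3H*, and *EHD4* (0.19), *ADAMTS17* (0.19) and *CATSPERZ* (0.21) to *APOBEC3A*. No other member came nearer to *APOBEC3B* than *APOBEC3H*, at 3.09. With the paralogs this far from *APOBEC3B*, none of these lists could share a gene with the *APOBEC3B* list.

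A list of 20 proliferation genes, such as *MKI67*, *TOP2A* and the MCM helicase genes, gives the background for *APOBEC3B*. All 20 were at least 1.5-fold lower in palbociclib in each line, with medians of -2.70, -4.52 and -1.57. After knockdown 20, 20 and 6 of the 20 were lower, with medians of -1.26, -1.69 and -0.50. *APOBEC3B* lay near these medians after knockdown, at -1.12, -1.87 and -0.35. In palbociclib it lay below the median in each line, and in NALM-6 its -4.75 was outside the range of the list, which went from -3.65 to -1.46. In RS4;11 the list went down to -7.16, the value of *MKI67*, and in BV-173 to -2.55, also that of *MKI67*. The list was lower in the same groups as *APOBEC3B*, and its part in the *APOBEC3B* values was not tested.

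**Figure D5:**
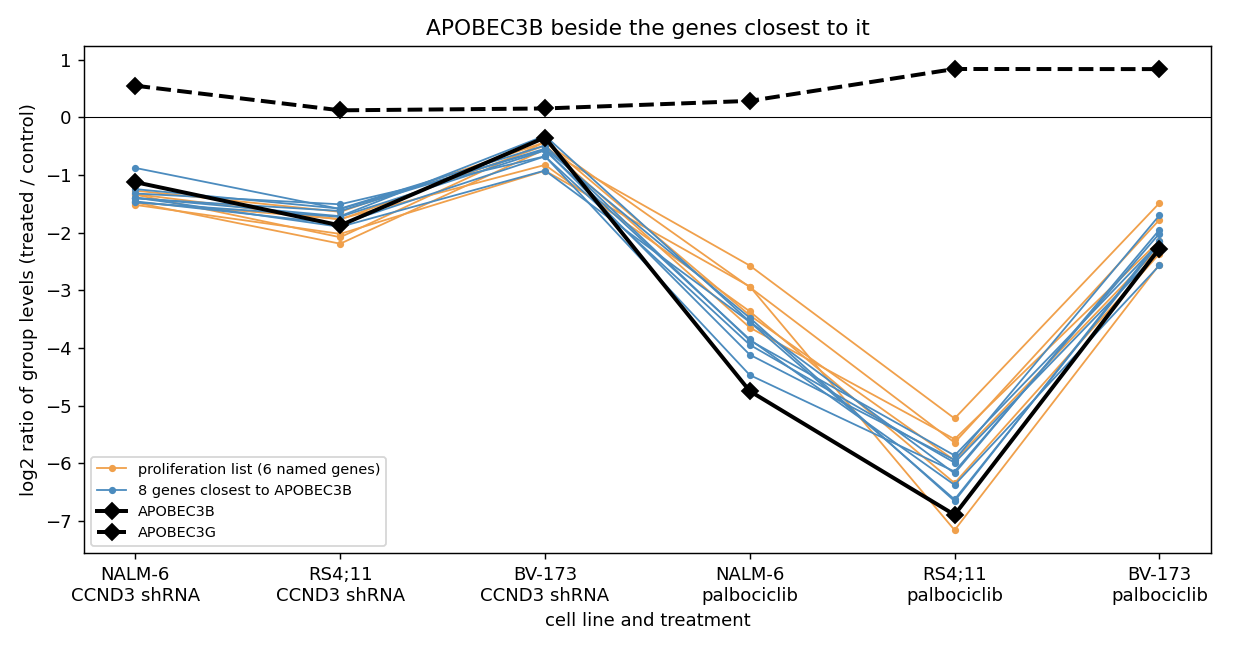
Log2 ratios of group levels (y axis) in the 6 comparisons (x axis) of *APOBEC3B* (solid black), the 8 genes nearest to it (blue), the 6 named genes of the proliferation list (orange) and, for contrast, *APOBEC3G* (dashed black). The blue genes were chosen by these same 6 ratios, so their lines lie near *APOBEC3B* by construction. The orange genes are those of a list of 20 with the largest absolute median log2 ratio. *APOBEC3B* is the lowest of the solid lines in NALM-6 in palbociclib at -4.75, while *APOBEC3G* stays between 0.12 and 0.84.

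Of 20 regulators of the RB-E2F and DREAM pathway, 12, 12 and 10 were lower and 2, 1 and 1 higher in palbociclib. The list medians were -0.69, -0.88 and -0.66, and its highest ratios 1.48, 0.69 and 1.41. After knockdown 9, 12 and 7 were lower and 1, 1 and 0 higher, with medians of -0.41, -0.70 and -0.42. All listed genes had shares of 14.9%, 15% and 11.9% lower and 21.4%, 16.7% and 13.6% higher in palbociclib. Those for knockdown were 8.47%, 9.72% and 4.78% lower and 7.82%, 9.73% and 3.32% higher. *MYBL2*, the B-MYB subunit that joins the MuvB core in cycling cells, had log2 ratios of -2.73, -6.26 and -1.84 in palbociclib and -1.19, -1.92 and -0.48 after knockdown. *FOXM1*, the next factor recruited to that core, had -3.47, -5.70 and -2.01, and -1.41, -1.85 and -0.68. *E2F8*, a repressor that is itself an E2F target, had -3.63, -5.73 and -2.57, and -1.54, -2.08 and -0.91. The order of the lines was that of *APOBEC3B* for all 3 genes in both treatments, with RS4;11 lowest and BV-173 nearest to 0. The medians of the proliferation list had the same order. These 3 genes are among the 6 regulators with the largest absolute median log2 ratio, and not every other regulator kept this order. The part of these regulators in the *APOBEC3B* values was not tested.

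The NF-kB pathway is known to drive *APOBEC3B* in other cells. Of its 13 listed genes, 0, 1 and 1 were lower and 0, 2 and 0 higher in palbociclib. After knockdown 1, 0 and 1 were lower and 3, 0 and 0 higher. Shares over all genes in palbociclib were 14.9%, 15% and 11.9% lower and 21.4%, 16.7% and 13.6% higher. For knockdown they were 8.47%, 9.72% and 4.78% lower and 7.82%, 9.73% and 3.32% higher. *RELB*, the noncanonical subunit, had ratios above 0 in all 6 comparisons, from 0.10 to 0.98. *MAP3K14*, the kinase NIK of the noncanonical pathway, had ratios below 0 in all 6, with -0.55, -0.81 and -0.09 in palbociclib and -0.64, -0.33 and -0.09 after knockdown. *NFKBIA*, which encodes the inhibitor of the canonical pathway, had 0.02, -0.42 and -0.69, and -0.12, -0.25 and -0.62. The part of these genes in the *APOBEC3B* values was not tested.

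Interferon-stimulated genes were examined because several paralogs are interferon-induced in other cells. Of 28 listed, 12, 10 and 5 were higher and 4, 4 and 5 lower in palbociclib, with medians of 0.50, 0.22 and 0.11. After knockdown 0, 6 and 1 were higher and 6, 1 and 1 lower, with medians of -0.15, 0.11 and -0.10. The all-gene shares in palbociclib were 21.4%, 16.7% and 13.6% higher and 14.9%, 15% and 11.9% lower. For knockdown they were 7.82%, 9.73% and 3.32% higher and 8.47%, 9.72% and 4.78% lower. The part of the interferon-stimulated genes in the values of the paralogs was not tested. *IRF9*, a subunit of the interferon-activated factor ISGF3, had ratios of 0.88, 0.84 and 0.27 in palbociclib, and *HERC5*, which joins ISG15 to proteins, had -2.43, -2.12 and -1.81.

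Enzymes that handle uracil in DNA, the product of APOBEC3 activity, were mixed. Of 12 listed, 5, 4 and 3 were lower and 1, 1 and 1 higher in palbociclib, with medians of -0.40, -0.36 and -0.29. After knockdown 4, 3 and 1 were lower and 0, 1 and 0 higher, with medians of 0.01, 0.04 and -0.04. Of all genes, 14.9%, 15% and 11.9% were lower and 21.4%, 16.7% and 13.6% higher in palbociclib. Knockdown shares were 8.47%, 9.72% and 4.78% lower and 7.82%, 9.73% and 3.32% higher. *UNG*, the main uracil-DNA glycosylase, went from 1360 to 563 in NALM-6 and from 2492 to 832 in RS4;11 in palbociclib, but from 567 to 901 in BV-173 (log2 ratios -1.27, -1.58 and 0.67). *DUT*, which removes dUTP before it can enter DNA, had log2 ratios of -1.82, -1.83 and -1.11. *LIG1*, the replicative DNA ligase, had -2.18, -3.30 and -1.89. *UNG* thus moved with *APOBEC3B* in NALM-6 and RS4;11 and opposite to it in BV-173 in palbociclib.

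Of 15 listed genes that restrict retroviruses and retroelements by other means, 4, 5 and 3 were lower and 2, 2 and 2 higher in palbociclib, and 2, 3 and 1 were lower and 2, 2 and 0 higher after knockdown. *BST2*, the tether that holds virus particles at the cell surface, had log2 ratios of 1.20, 1.15 and 1.26 in palbociclib. *SAMHD1*, which breaks down dNTPs, had 0.60, 0.55 and 2.25. *RNASEH2A*, the catalytic subunit of RNase H2, had -2.20, -2.19 and -0.89. Of 12 p53 targets, 6, 1 and 4 were lower and 1, 3 and 3 higher in palbociclib. After knockdown 1, 3 and 0 were lower and 2, 2 and 0 higher. Beside both lists, the all-gene shares in palbociclib were 14.9%, 15% and 11.9% lower and 21.4%, 16.7% and 13.6% higher. For knockdown they were 8.47%, 9.72% and 4.78% lower and 7.82%, 9.73% and 3.32% higher. *TP53INP1*, a p53-induced nuclear protein gene, had 1.89, 3.94 and 3.13 in palbociclib, and *DDB2*, a sensor of UV damage, had -3.09, -1.81 and -1.38.

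Of the more distant relatives outside the cluster, *APOBEC2*, a muscle gene with no known deaminase activity, stayed between 1.18 and 3.57 in all groups, and *APOBEC4* was listed in 3 of the 6 tables.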

How the data were processed

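Per the labels and the study's methods, poly(A) RNA libraries of sorted or treated cells were sequenced, the reads were cleaned by the authors with SOAPnuke and aligned to hg38 with Bowtie2, RSEM then gave gene levels, and DESeq2 was run by the authors on each pair of groups. The deposited tables hold 1 signal per group (12 columns of group values), the length of each gene, and the authors' log2 fold change, p-value and adjusted p-value, and the last 3 were not used. How replicates were combined into a group signal is not given in the sources used here. No gene was at 0. Depth and replicate spread cannot be seen in the group signals, so no interval or test was computed.

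For each gene the log2 ratio of the 2 group signals was taken, with no pseudocount. A gene was called at a ratio of at least 1.5-fold. Levels were compared between genes per kb of the deposited length, and between lines after scaling by the median of ratios over the 13307 shared genes. The members and gene lists were chosen with earlier results of these data known. The named genes were the 7 members, *CCND3*, the 8 genes nearest to *APOBEC3B* and the 3 nearest to each other member, up to 6 genes of each list by absolute median log2 ratio, and 3 neighbours on each side of the cluster. Of these, 1 gene is not reported here. Genes were matched to RefSeq by NCBI identifier. Alternatives were other centring, a pseudocount of 1, a fold of 2, a level of at least 10 or 100, coding length, the other control, and leaving out each line. Python 3.11.15, numpy 2.4.6, pandas 2.3.3 and matplotlib 3.10.9 were used. Only the 1.5-fold call and the scaling by the median of ratios were tested on simulated data.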

Additional observations from a re-analysis of the deposited data

How the results depend on the processing

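Of 247 recomputed values, 226 stayed on their side of the 1.5-fold mark (counts and shares, within 1.5 times) and no value past the mark changed sign. All log2 ratios of *APOBEC3B* and all its differences from the paralogs were among the 226 under each alternative run. With a mean level of at least 10, the members higher in NALM-6 in palbociclib went from 1 to 0, since *APOBEC3A* was left out. At a fold of 2, those lower in RS4;11 went from 2 to 1, those higher there to 0, and those higher in BV-173 from 3 to 0. Centring on the median of all genes left 1 higher in BV-173. Coding length gave *APOBEC3B* shares of 5.65%, 16.0% and 14.6% in DMSO (NALM-6, RS4;11, BV-173). By Pearson correlation 3 of the 8 nearest genes were found again, and at a level of at least 100, which *APOBEC3B* itself does not reach in palbociclib in NALM-6 and RS4;11, 0 were. A further 11 values of paralogs went under the mark, mostly when a line was left out. No paired analysis was possible because the tables hold 1 value per group, and for the same reason no replicate could be left out. From group levels alone, small ratios such as those of *APOBEC3D* cannot be told from no difference.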
